A study of Mus musculus with 23 samples.

Results

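The genes described here encode the machinery that carries newly made secretory proteins into the endoplasmic reticulum (ER), removes their signal peptides and attaches N-linked sugars to them. They were chosen by gene symbol, as subunits of the signal recognition particle (SRP), its receptor, the translocon, the signal peptidase and the oligosaccharyltransferase. All 33 symbols were present among the 18512 symbols of the files, and all 33 had enough counts to be tested. RNA-seq libraries, depleted of ribosomal RNA, had been made from the pancreatic head of 23 C57BL/6 mice from Charles River (6 to 8 weeks old, 20 to 25 g). The baseline group held 8 non-injured mice (4 female, 4 male). The day 7 group held 8 mice (4 female, 4 male) and the day 14 group 7 mice (3 female, 4 male) that had received caerulein, a cholecystokinin analogue that overstimulates acinar cells, at 50 µg/kg in 8 hourly intraperitoneal injections on each of 2 consecutive days. The comparison addresses whether the injured pancreas had returned to its baseline transcriptome 1 and 2 weeks after injury. No genetic alteration is given for any group.

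The acinar cell of the pancreas makes more secretory protein than almost any other cell, and nearly all of it enters the ER while it is being translated. SRP binds the signal peptide as it leaves the ribosome, docks on its receptor in the ER membrane and hands the ribosome to the Sec61 channel, beside which the translocon-associated protein (TRAP) complex sits. On the luminal side the signal peptidase cuts off the signal peptide and the oligosaccharyltransferase transfers a preassembled sugar chain to asparagine residues of the passing chain.

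Libraries held 7059890 to 9567446 counts per mouse. The tissue identity of the label held at all time points, since all 10 acinar markers had counts in every group, but the cell makeup of the samples moved with the time points. The summed normalised counts of the acinar markers were 2996000 to 4413000 in the baseline mice, 1770000 to 2701000 in the day 7 mice and 2728000 to 3252000 in the day 14 mice. At day 7, 9 of the 10 acinar markers were lower than at baseline, while 9 of 10 macrophage, 6 of 8 fibroblast, 5 of 8 islet and 4 of 5 erythroid markers were higher (adjusted p at most 0.05 in edgeR). With total count scaling 5 acinar markers were lower and 1 higher. Of the other lists, 2 of 7 ductal markers were higher, 2 of 6 endothelial markers were lower, and 0 of 5 lymphocyte, 0 of 4 adipocyte and 0 of 4 smooth muscle and pericyte markers were called. Macrophage markers summed to 476 to 1791 normalised counts at baseline and 1144 to 2673 at day 7, fibroblast markers to 2790 to 5519 and 5219 to 9979, and islet markers to 1127 to 4822 and 3531 to 10230. Erythroid markers summed to 240.5 to 424 at baseline (median 303.6) and 211.5 to 5847 at day 7 (median 474.2), so the day 7 range took in the whole baseline range. Plasma cell markers, from a cell type that is itself rich in the ER machinery, gave 0 calls of 6 tested at either day and summed to 667 to 1091 at baseline and 776 to 1125 at day 7. The part of these shifts in the results on the machinery was not tested, and in whole tissue fewer cells of a type and less RNA per cell cannot be told apart.

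Levels are given as normalised counts, that is, counts brought to the mean TMM-scaled library size of all mice. Changes are log2 fold changes from edgeR's quasi-likelihood test over all 23 mice with sex as a covariate, and a gene was called when its p, adjusted with the Benjamini-Hochberg method over 12195 genes, was at most 0.05. The p-values measure the spread between mice.

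At baseline 32 of the 33 genes of the machinery lay above the typical gene in expression. Per kilobase of the principal transcript, the most abundant members were *Sec11c*, a catalytic subunit of the signal peptidase, at 1918 normalised counts per kilobase (SD 290, n = 8), *Tram1*, a membrane protein next to the Sec61 channel, at 1715 (SD 266), and *Sec61b*, the beta subunit of the channel, at 1157 (SD 143). The median over all tested genes was 27.2 per kilobase, and the only member below it was *Srp54a* at 8.44 per kilobase (SD 1.58). *Srp54b* and *Srp54c* followed at 29.2 each, and the next, *Dad1*, a small subunit of the oligosaccharyltransferase, stood at 64.7 (SD 7.25). Of short windows along the transcripts, only 31.7% in *Srp54a*, 11.8% in *Srp54b* and 8.32% in *Srp54c* occurred in no other gene. Uniquely mapped fragments were counted, so the levels of these *Srp54* copies per kilobase may be too low. The counts of *Srp54b* and *Srp54c* were nearly identical in every mouse, as given below. If the same fragments were counted for both, their levels may instead be too high, which was not tested. How far the levels of the *Srp54* copies are off was not tested either, and their low rank is therefore uncertain. The ranges of *Sec11c* and *Tram1* overlap within 1 SD, and so do those of *Srp54b* and *Srp54c*. The biological coefficient of variation estimated by edgeR was 12.1% in the median member, against 12.7% in the median tested gene, and ran from 6.60% for *Sec11a* to 19.2% for *Rpn1*.

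At day 7, 10 of the 33 members were called against baseline, which is 30.3% of them, beside 18.6% of all tested genes. Of these, 9 rose (8.86% of all genes were called higher) and 1, *Srp68*, fell (9.7% of all genes were called lower). The genes that rose were *Srp19*, *Srp54b*, *Srp54c*, *Sec61g*, *Ssr2*, *Ssr4*, *Spcs1*, *Sec11a* and *Ostc*. None of the 33 reached a fold change of 1.5, which 5.13% of all genes did among the called, and *Ssr2* came nearest at 1.48. The median log2 fold change of the members was 0.13, beside 0.02 over all tested genes, and 27 members had a positive value, beside 53.7% of all genes. At day 14 no member was called (1.57% of all genes were), and DESeq2 also called 0. An unadjusted p under 0.05 was found in edgeR for 3 of the 33 members (*Sec61g*, *Ssr2* and *Ssr4*). It was found for 1618 of the 12195 tested genes, which is a larger share. The median at day 14 was 0.08, beside 0.01 over all genes, and again 27 members had a positive value. Both comparisons share the baseline mice.

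**Figure D1:**
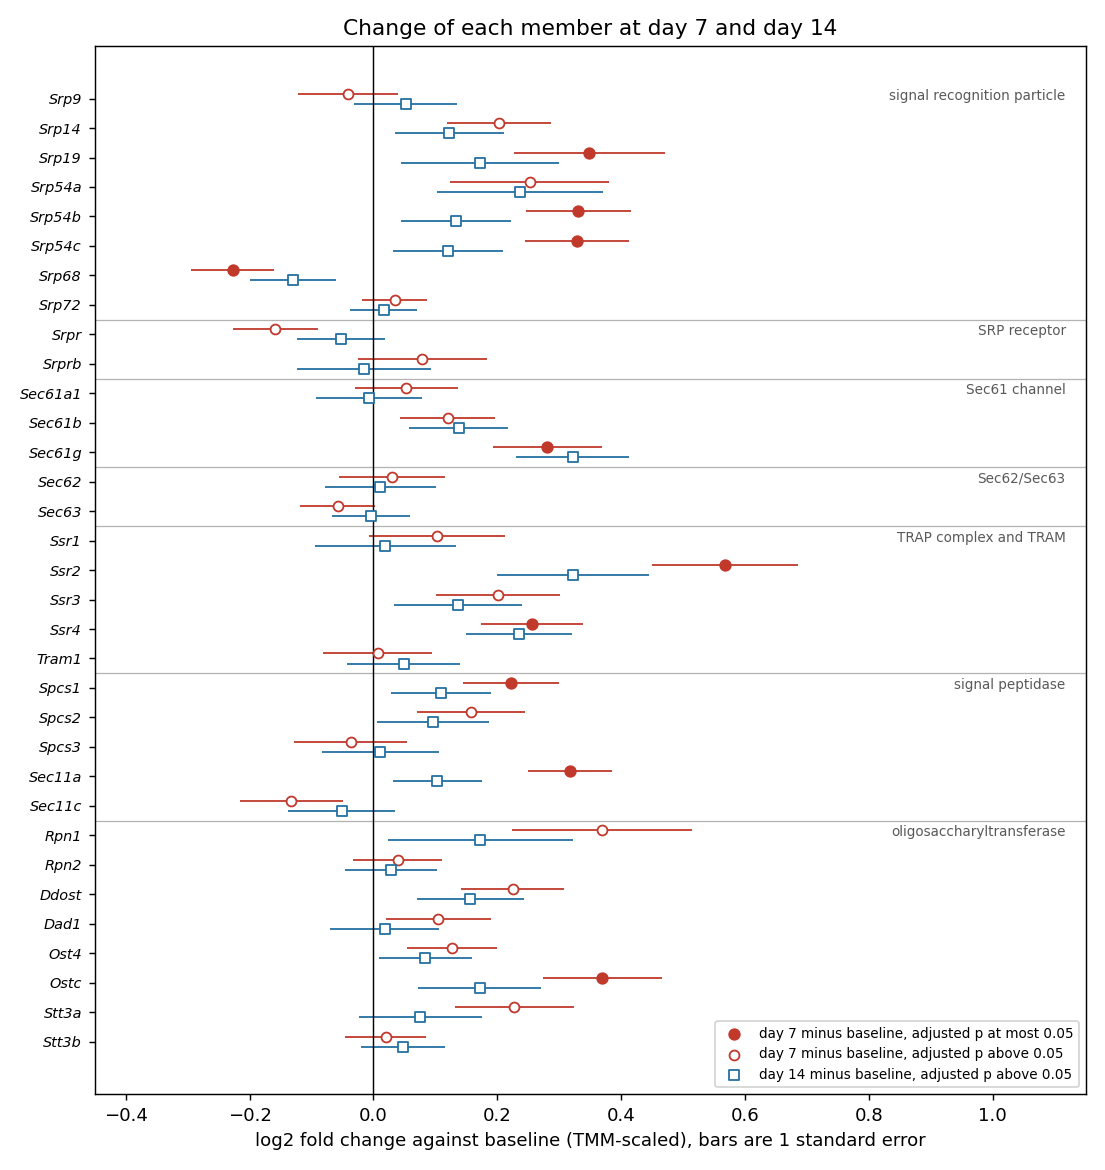
Log2 fold change of each of the 33 genes (y axis, grouped by complex) against baseline at day 7 (circles) and day 14 (squares), with bars of 1 standard error and filled symbols for an adjusted p of at most 0.05 (edgeR). The 10 filled circles lie between -0.23 for *Srp68* and 0.57 for *Ssr2*, and no square is filled.

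These values depend on the scaling. Between baseline and day 7 the 20 most abundant genes went from a median of 69.6% of all counts to 61.0%, and scaling by total counts alone moved the median log2 fold change of all genes to 0.48. All 33 members then had a positive value and an adjusted p of at most 0.05 at day 7, and 76.7% of all genes were called. The median of the members was 0.58, which is 0.10 above that of all genes, and TMM scaling also put it 0.10 above. The 6 members that turned from negative to positive were *Srp9*, *Srp68*, *Srpr*, *Sec63*, *Spcs3* and *Sec11c*. All directions below are relative to the typical gene, by TMM.

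In the signal recognition particle, 3 of 8 genes rose at day 7, 1 fell and 4 were not called. The protein Srp54 is the GTPase that holds the signal peptide, and the mouse genome carries 3 copies of its gene side by side on chromosome 12. *Srp54b* (chr12:55155104-55189573) had 101 normalised counts in the lowest baseline mouse, 107 in the median and 114 in the highest, against 116, 131 and 149 at day 7 and 91.5, 112 and 142 at day 14. The day 7 mice lay above every baseline mouse in 8 of 8 cases, while the day 14 mice spread over the ranges of both other groups. The log2 fold change was 0.33 at day 7 (standard error 0.085, adjusted p = 0.00666) and 0.13 at day 14 (adjusted p = 0.566). *Srp54c* gave almost the same values, 0.33 at day 7 (adjusted p = 0.00667) and 0.12 at day 14 (adjusted p = 0.616).

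The counts of *Srp54b* and *Srp54c* were identical in 12 of 23 mice and never differed by more than 2, with 69 to 178 counts per mouse. These are therefore not 2 separate observations, and with the copies counted once 9 of 32 members were called at day 7. Of the 75-base windows in their transcripts, 11.8% in *Srp54b* and 8.32% in *Srp54c* occurred in no other gene, and 31.7% in *Srp54a*. *Srp54a* had 18 to 59 counts per mouse and a log2 fold change of 0.25 at day 7 (adjusted p = 0.174). The likeness of the copies extends to the sequence around their annotated starts, which is shown here. How far reads of the 3 genes can be separated rests on the transcript windows above. The RefSeq windows of 250 bases before to 50 after the annotated start (GRCm38.p6, plus strand) lie at chr12:55080246-55080545 for *Srp54a*, chr12:55154854-55155153 for *Srp54b* and chr12:55230127-55230426 for *Srp54c*. Capitals mark a run of 48 bases that all 3 windows hold, at different distances from the RefSeq start. In GENCODE the genes begin at bases 55080262 (*Srp54a*), 55155104 (*Srp54b*) and 55230168 (*Srp54c*). The run begins just after that start in each copy, so most of the windows of *Srp54a* and *Srp54c* lies inside the gene.
Srp54a: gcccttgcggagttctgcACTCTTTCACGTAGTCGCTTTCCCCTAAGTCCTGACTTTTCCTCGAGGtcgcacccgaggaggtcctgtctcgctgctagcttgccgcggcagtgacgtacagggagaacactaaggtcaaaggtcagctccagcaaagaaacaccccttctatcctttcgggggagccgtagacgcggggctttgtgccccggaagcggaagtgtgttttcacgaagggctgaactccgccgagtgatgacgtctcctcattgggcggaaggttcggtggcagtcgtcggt
Srp54b: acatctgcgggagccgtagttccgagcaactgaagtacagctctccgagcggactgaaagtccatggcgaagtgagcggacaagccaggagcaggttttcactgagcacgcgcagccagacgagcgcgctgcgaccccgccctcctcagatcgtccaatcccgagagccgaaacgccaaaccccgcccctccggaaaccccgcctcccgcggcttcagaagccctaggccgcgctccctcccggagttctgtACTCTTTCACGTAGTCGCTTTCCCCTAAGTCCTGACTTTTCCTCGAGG
Srp54c: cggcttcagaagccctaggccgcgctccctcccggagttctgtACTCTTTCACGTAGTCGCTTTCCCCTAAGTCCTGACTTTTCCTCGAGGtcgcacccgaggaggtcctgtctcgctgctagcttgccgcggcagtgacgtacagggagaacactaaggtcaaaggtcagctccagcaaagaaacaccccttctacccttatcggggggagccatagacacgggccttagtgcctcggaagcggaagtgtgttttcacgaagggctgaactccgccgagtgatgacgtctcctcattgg
The longest run shared by the windows of *Srp54b* and *Srp54c* was 91 bases, and that shared by *Srp54a* and *Srp54c* was 153 bases.

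*Srp68* (chr11:116245166-116274217), which with *Srp72* forms the large heterodimer of the particle, was the only member to fall. Its normalised counts were 788 in the lowest baseline mouse, 846 in the median and 937 in the highest. They were 607, 720 and 824 at day 7, and 689, 728 and 870 at day 14. The groups overlapped, with 5 of 8 day 7 mice below every baseline mouse. For *Srp68* the log2 fold change was -0.23 at day 7 (standard error 0.067, adjusted p = 0.0178) and -0.13 at day 14 (adjusted p = 0.438). This call was lost with an offset for GC content, and its sign turned with total count scaling (0.22). Its partner *Srp72* had a log2 fold change of 0.03 at day 7 (adjusted p = 0.684).

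Of the other subunits of the particle, *Srp19*, which helps to fold the RNA core of the particle, rose at day 7 (log2 fold change 0.35, standard error 0.12, adjusted p = 0.0477), when 5 of 8 mice exceeded the whole baseline range. This call lay at the threshold and was lost in 4 other settings (DESeq2, its size factors in edgeR, no filter, and the GC content offset). It was also lost in 15 of the 23 fits that left out a mouse (baseline mouse 2, 3, 4, 5 or 8, day 7 mouse 9, 11, 13, 14, 15 or 16, or day 14 mouse 18, 19, 23 or 24). *Srp14* had 0.20 (adjusted p = 0.0931) and its partner *Srp9*, with which it binds the Alu domain of the RNA, -0.04 (adjusted p = 0.762). The receptor of the particle gave no call. *Srpr* (chr9:35200175-35247973), its GTPase subunit, had 1765, 1970 and 2105 normalised counts in the lowest, median and highest baseline mouse. The values were 1430, 1770 and 1978 at day 7 and 1653, 1907 and 2075 at day 14. The ranges overlapped, and 4 of 8 mice at day 7 and 2 of 7 at day 14 lay below every baseline mouse. The log2 fold change of *Srpr* was -0.16 at day 7 (adjusted p = 0.109) and -0.05 at day 14 (adjusted p = 0.836), and it overlaps *Foxred1* and *Fam118b* on the opposite strand, whose reads could not be told apart if strand was not used in counting. *Srprb*, the membrane anchor of the receptor, had 0.08 at day 7 (adjusted p = 0.636).

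In the Sec61 channel a small subunit rose and the other 2 genes were not called. *Sec61g* (chr11:16500530-16508484), the gamma subunit that clamps the channel, had 149, 181 and 241 normalised counts in the lowest, median and highest baseline mouse. It had 196, 224 and 246 at day 7, and 183, 225 and 265 at day 14. The groups overlapped, and 1 of 8 mice at day 7 and 2 of 7 at day 14 lay above the whole baseline range. Its log2 fold change was 0.28 at day 7 (standard error 0.088, adjusted p = 0.0248) and 0.32 at day 14 (standard error 0.091, adjusted p = 0.0738), the smallest adjusted p of any member at day 14. It was the member called at day 14 when only genes with at least 10 counts in every mouse were tested (adjusted p = 0.0435), and when baseline mouse 6 or day 14 mouse 21 was left out. Its call at day 7 was lost with the GC content offset and without baseline mouse 4, 5 or 8 or day 7 mouse 11 or 13. Of its 75-base windows 86.3% occurred in no other gene.

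*Sec61b* had a log2 fold change of 0.12 at day 7 (adjusted p = 0.296), and *Sec61a1*, the pore itself, 0.05 (standard error 0.083, adjusted p = 0.691). *Sec62* and *Sec63* are the partners that help substrates with weaker signal peptides through the channel. *Sec63* (chr10:42761496-42832514) had 716, 853 and 960 normalised counts in the lowest, median and highest baseline mouse, 696, 810 and 909 at day 7, and 782, 838 and 910 at day 14. *Sec62* (chr3:30792875-30821263) had 1140, 1729 and 1910 at baseline, 1379, 1728 and 1908 at day 7, and 1400, 1715 and 1880 at day 14. The ranges of both genes overlapped between all groups. Their log2 fold changes were -0.06 for *Sec63* (adjusted p = 0.54) and 0.03 for *Sec62* (adjusted p = 0.845) at day 7, and 0.00 (adjusted p = 0.992) and 0.01 (adjusted p = 0.985) at day 14.

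The TRAP complex gave the largest change of any member. *Ssr2* (chr3:88575876-88588419), its beta subunit, had 371 normalised counts in the lowest baseline mouse, 429 in the median and 603 in the highest. At day 7 the values were 505, 689 and 787, and at day 14 they were 450, 604 and 704. The groups overlapped at their edges, and 6 of 8 day 7 mice and 4 of 7 day 14 mice exceeded the whole baseline range. *Ssr2* had a log2 fold change of 0.57 at day 7 (standard error 0.12, adjusted p = 0.00172) and 0.32 at day 14 (standard error 0.12, adjusted p = 0.224). *Ssr4* (chrX:73787028-73790830), the delta subunit, had 1475, 1778 and 2104 normalised counts at baseline, 1663, 2088 and 2568 at day 7, and 1766, 2091 and 2227 at day 14. Its medians at both days lay near the highest baseline mouse, and 4 of 8 and 3 of 7 mice exceeded it. The log2 fold change of *Ssr4* was 0.26 at day 7 (standard error 0.082, adjusted p = 0.0281) and 0.24 at day 14 (adjusted p = 0.182). The day 7 call of *Ssr4* was lost with only the mice compared and without baseline mouse 4, 5 or 8 or day 7 mouse 9, 11 or 13. *Ssr3* had 0.20 (adjusted p = 0.167), *Ssr1* 0.10 (adjusted p = 0.55) and *Tram1*, the most counted of all members, 0.01 (standard error 0.088, adjusted p = 0.971) at day 7.

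**Figure D2:**
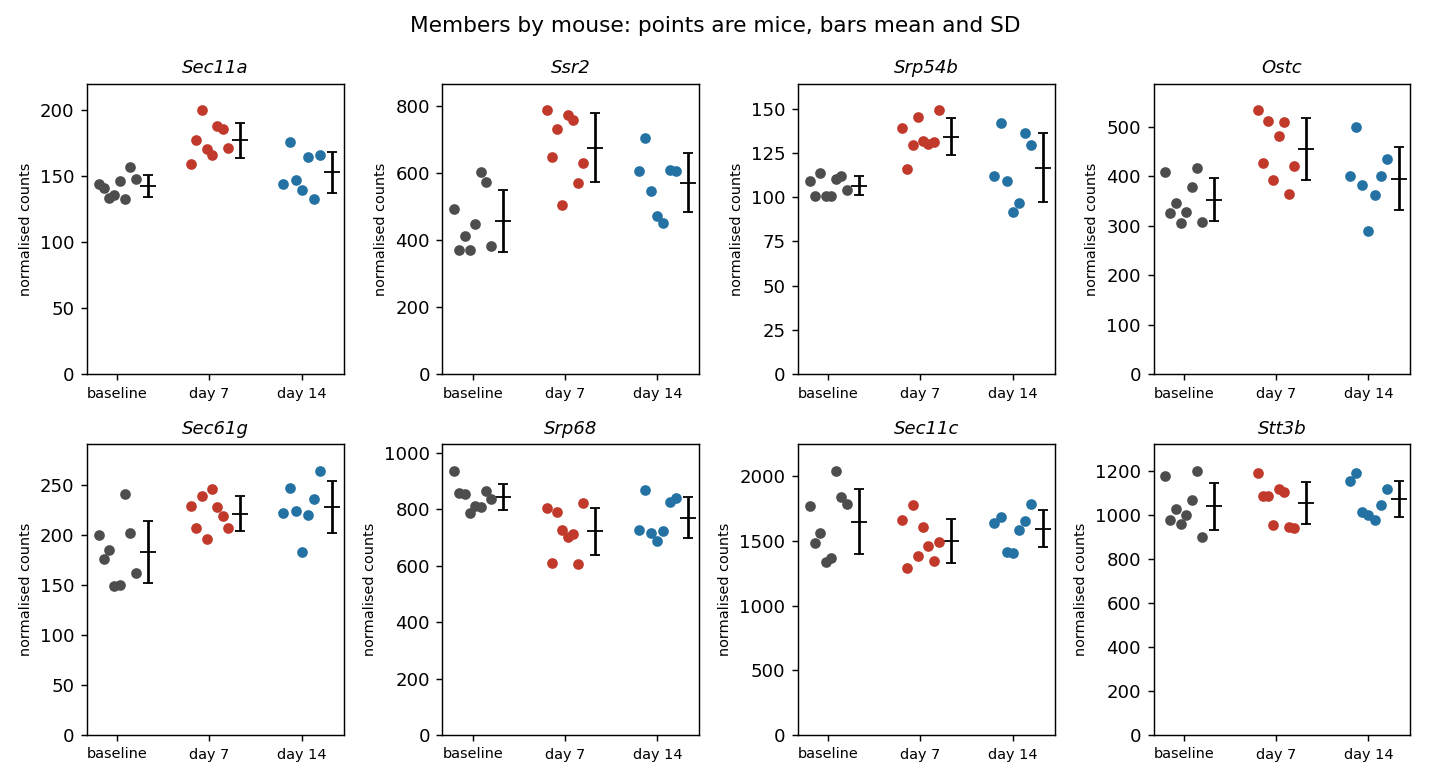
Normalised counts (y axis, from 0) of 8 of the genes in every mouse at baseline, day 7 and day 14, with the mean and SD of each group beside the points. The day 7 points of *Sec11a* and *Srp54b* lie above all baseline points, 5 of the 8 day 7 points of *Srp68* lie below all baseline points, and *Sec11c* and *Stt3b* overlap throughout.

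The signal peptidase holds 2 alternative catalytic subunits, *Sec11a* and *Sec11c*, of which the first rose and the second was not called. *Sec11a* (chr7:80904889-80947780) had 133 normalised counts in the lowest baseline mouse, 142 in the median and 157 in the highest. It had 159, 174 and 200 at day 7, and 133, 147 and 176 at day 14. All 8 day 7 mice lay above every baseline mouse and 3 of 7 did so at day 14. The log2 fold change was 0.32 at day 7 (standard error 0.068, adjusted p = 0.00161, the smallest of any member) and 0.10 at day 14 (adjusted p = 0.582). *Sec11a* overlaps *Nmb* by 188 bases and *Gm45718* by 3794 bases on the same strand, and *Gm16171* by 324 bases on the opposite strand. *Sec11c* had 1337, 1668 and 2042 normalised counts at baseline and 1287, 1477 and 1779 at day 7, and its log2 fold change of -0.13 (standard error 0.083) was not called (adjusted p = 0.279).

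The ratio of both genes within a library does not depend on scaling. It was taken up after the values had been seen, as was that of *Stt3a* and *Stt3b*, the alternative catalytic subunits of the oligosaccharyltransferase. The p-values of these ratios are not adjusted for that choice, and the permutations held no sex term. The count ratio of *Sec11a* to *Sec11c* was 0.0650 in the lowest, 0.0853 in the median and 0.107 in the highest baseline mouse, against 0.0960, 0.119 and 0.138 at day 7 and 0.0803, 0.0998 and 0.105 at day 14. At day 7 it was 1.36-fold higher (log2 difference 0.45, standard error 0.10, exact two-sided permutation p = 0.00109, adjusted over 4 tests 0.00249), and 6 of 8 mice exceeded the whole baseline range. At day 14 the log2 difference was 0.14 (exact permutation p = 0.187, adjusted 0.249). The ratio of *Stt3a* to *Stt3b* was 0.432, 0.557 and 0.613 in the lowest, median and highest baseline mouse and 0.578, 0.625 and 0.713 at day 7. It was 1.16-fold higher at day 7 (log2 difference 0.21, standard error 0.065, exact permutation p = 0.00124, adjusted 0.00249), and 1.02-fold higher at day 14 (exact permutation p = 0.747, adjusted 0.747). Leaving out any mouse changed none of these 4 calls. At day 7 *Sec11c* stood at 1746 normalised counts per kilobase and *Sec11a* at 132.

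Among the other subunits of the peptidase, *Spcs1* rose at day 7 (log2 fold change 0.22, standard error 0.078, adjusted p = 0.045), when 6 of 8 mice exceeded the whole baseline range. The call of *Spcs1* was lost in 5 other settings (DESeq2, its size factors in edgeR, no filter, the GC content offset, and only the mice compared). It was also lost in 16 of the 23 fits that left out a mouse (any of baseline mice 1 to 5, day 7 mouse 9, 11, 13, 14, 15 or 16, or day 14 mouse 17, 18, 19, 22 or 23). *Spcs2* had 0.16 (adjusted p = 0.217) and *Spcs3* -0.04 (adjusted p = 0.817).

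In the oligosaccharyltransferase all 8 values were positive at day 7, and 1 of the 8 genes was called. *Ostc* (DC2), a small subunit that ties the *Stt3a* form of the enzyme to the translocon, had 307, 337 and 417 normalised counts in the lowest, median and highest baseline mouse. At day 7 it had 364, 454 and 534, and at day 14 289, 400 and 499. The day 7 values lay mostly above baseline, in 6 of 8 mice above all of it, and the day 14 values spanned the baseline range and part of the day 7 range. For *Ostc* the log2 fold change was 0.37 at day 7 (standard error 0.096, adjusted p = 0.00741) and 0.17 at day 14 (adjusted p = 0.488). *Ddost* (chr4:138304730-138312628), part of the enzyme's luminal core, had 781, 887 and 999 normalised counts at baseline, 828, 1068 and 1312 at day 7, and 856, 982 and 1137 at day 14. Its log2 fold change just missed the threshold at day 7 (0.22, standard error 0.083, adjusted p = 0.0579) and was 0.16 at day 14 (adjusted p = 0.451).

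The ribophorin *Rpn1*, which had the widest spread of the members, had a value of 0.37 at day 7 (standard error 0.14, adjusted p = 0.0816), as large as that of *Ostc*. *Rpn2* had 0.04 (adjusted p = 0.743), *Dad1* 0.10 (adjusted p = 0.411), *Ost4* 0.13 (adjusted p = 0.231), *Stt3a* 0.23 (adjusted p = 0.0999) and *Stt3b* 0.02 (standard error 0.066, adjusted p = 0.867). Transcripts of the 9 genes that rose had a median of 1345 bases, against 3028.5 for the other 24 members and 3213.5 for all tested genes. They ran from 702 bases in *Spcs1* to 3646 in *Srp54b*, and *Srp54b* and *Srp54c* lay above the median of all genes. Across the 33 members, Spearman's rho of the day 7 log2 fold change with transcript length was -0.168. The members share their libraries and are not replicates. Without *Srp54b* and *Srp54c*, which are not separate observations, rho was -0.268 across the other 31 members. Across 12124 genes rho was -0.0809. At day 14 rho was -0.286 across the 33 members, -0.343 without *Srp54b* and *Srp54c*, and -0.0917 across all these genes. Removing each mouse's trend with transcript length left the same 10 genes called.

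From day 7 to day 14 no member was called (1.29% of all genes were), with 0 calls in DESeq2. In edgeR 1721 of the 12195 tested genes had an unadjusted p under 0.05, a larger share than the 3 of 33 members that did. These 3 were *Sec11a*, *Srp54b* and *Srp54c*, with log2 fold changes of -0.21, -0.20 and -0.21 (adjusted p = 0.115, 0.279 and 0.247 in edgeR). Between males and females over all time points no member was called (0.574% of all genes were), and DESeq2 called 0. The smallest adjusted p of a member was 0.74 in edgeR. Of the members 0 had an unadjusted p under 0.05, beside 1097 of the 12195 genes. The interaction of sex with time point called no member and 0% of 12933 genes. A single member, *Srp19*, had an unadjusted p under 0.05 there (0.0311, adjusted p = 0.999 in edgeR), beside 566 of the 12933 genes, and DESeq2 called 0. At day 14 the median log2 fold change of the members against baseline was 0.15 in females and 0.00 in males. In females 30 of 33 members were positive, beside 52.7% of all genes, and in males 18 of 33, beside 49.6%. The day 14 effect was lower in males than in females for 29 of 33 members (median difference -0.13, from -0.56 to 0.09). It was higher in males for 4 members, beside 47.6% of all genes. For this difference none was called in edgeR (smallest adjusted p = 1) and 2, *Srp19* and *Ssr2*, had an unadjusted p under 0.05, beside 473 of the 12933 genes. At baseline 28 of 33 members were higher in males, beside 52.6% of all genes. Members moved together within a mouse, as described below, so these counts are not of 33 separate results.

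**Figure D3:**
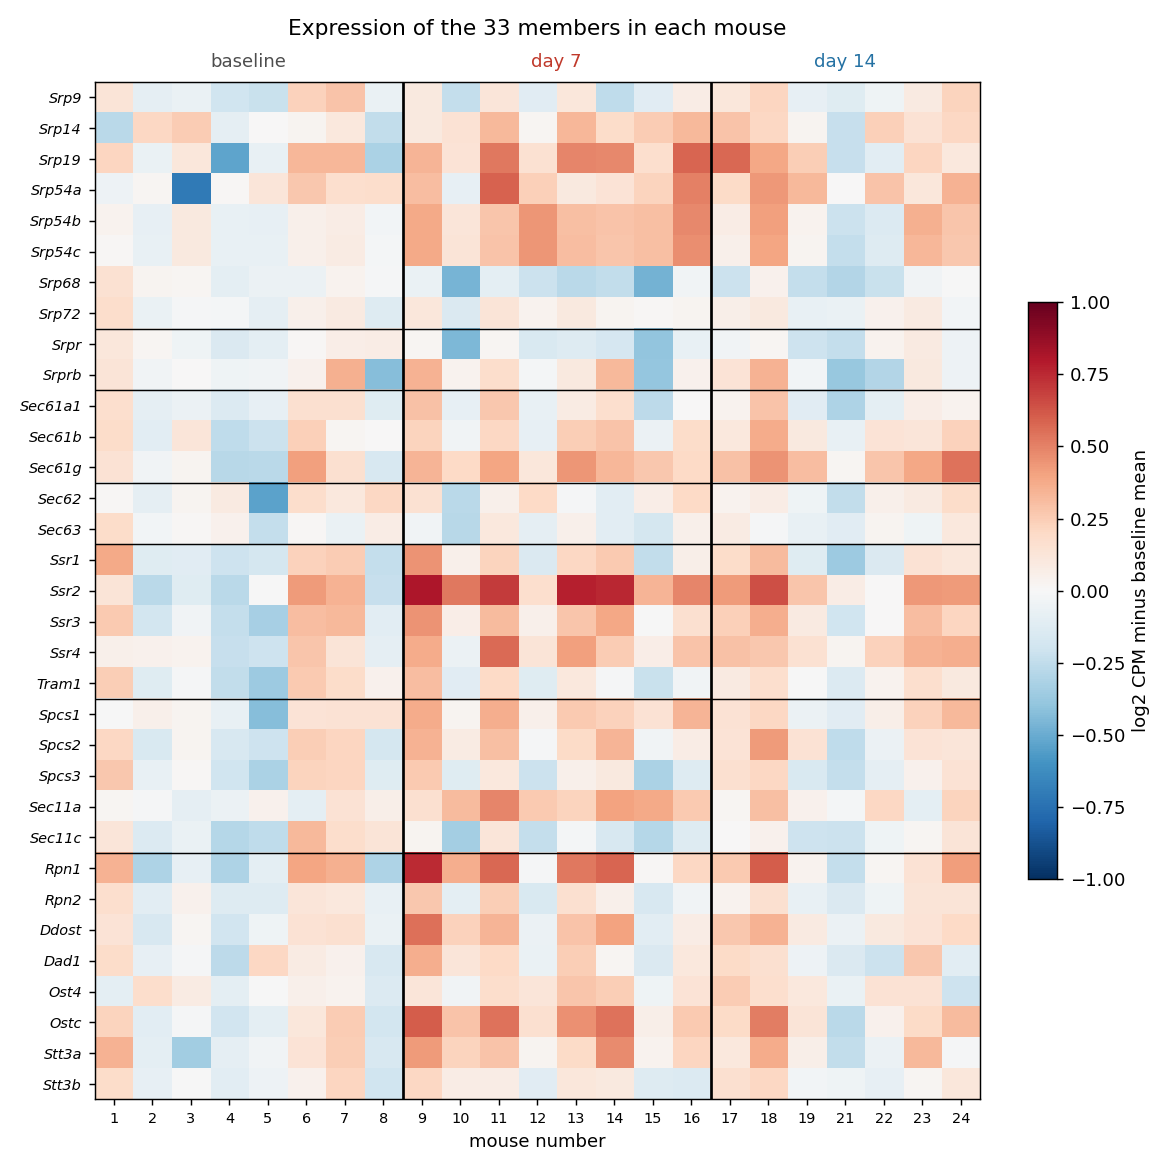
Log2 CPM of each of the 33 genes (rows, by complex) in each of the 23 mice (columns, by group) minus the gene's baseline mean, from blue (lower) to red (higher). *Ssr2* is above its baseline mean in all 8 day 7 columns, *Srp68* is pale or blue there, and the columns of mice 9, 11 and 18 are red over most rows while that of mouse 21 is pale or blue.

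Within a group the members tended to lie on the same side of the group mean in a given mouse. Baseline mice 1, 6 and 7 had 28, 31 and 32 of the 33 members above the mean of their group, whereas baseline mice 2, 4, 5 and 8 had 6, 2, 3 and 8. The same was seen at day 7, where mice 9 and 11 had 29 and 31 members above the group mean and mice 10, 12 and 15 had 3, 5 and 3. At day 14 mouse 18 had 32 members above the mean of its group and mouse 21 had 0. Of all tested genes, 46.2% to 48.8% lay above the group mean in each of the 23 mice, since TMM scaling centres each library on its typical gene. The median member stood at 0.837 to 1.14 times its group mean, depending on the mouse. High and low mice were found in both sexes, and the cause of the spread was not tested.

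**Figure D4:**
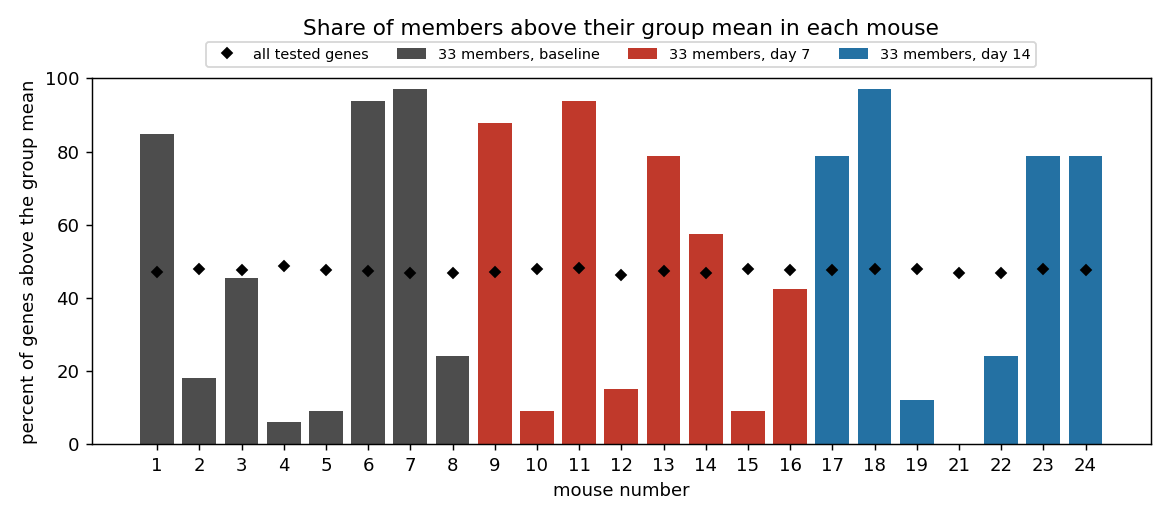
Percent of the 33 genes that lay above the mean of their own group (bars) in each mouse, with the same percent over all tested genes (diamonds). The diamonds stay between 46.2% and 48.8%, and the bars run from 0% in mouse 21 to 97.0% in mice 7 and 18.

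The machinery was also set against its cargo. The list of secretory cargo, 40 digestive enzymes, proenzymes and granule proteins of acinar cells, took 63.7% to 70.7% of all counts at baseline (median 68.2%), 54.0% to 61.5% at day 7 (median 59.9%) and 61.8% to 65.6% at day 14 (median 65.0%). The 33 members took 0.312% to 0.374% at baseline (median 0.347%), 0.437% to 0.566% at day 7 (median 0.499%) and 0.359% to 0.481% at day 14 (median 0.410%). Neither share overlapped between baseline and day 7. A share is a value by total counts, and by that scaling the typical gene also rose at day 7. The median log2 fold change was 0.48 over all genes and 0.58 over the members. How many other genes had shares without overlap was not counted. For every 1000 cargo counts there were 4.46 to 5.57 machinery counts at baseline (mean 5.03, SD 0.400, n = 8), 7.30 to 9.87 at day 7 (mean 8.45, SD 1.05, n = 8) and 5.50 to 7.71 at day 14 (mean 6.46, SD 0.723, n = 7). Every day 7 mouse lay above every baseline mouse, and the lowest day 14 mouse overlapped with baseline. These shares and ratios are descriptions with no test. They hold together the fall of the cargo, the rise in share of the typical gene, the rise of some members and any change of cell makeup.

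**Figure D5:**
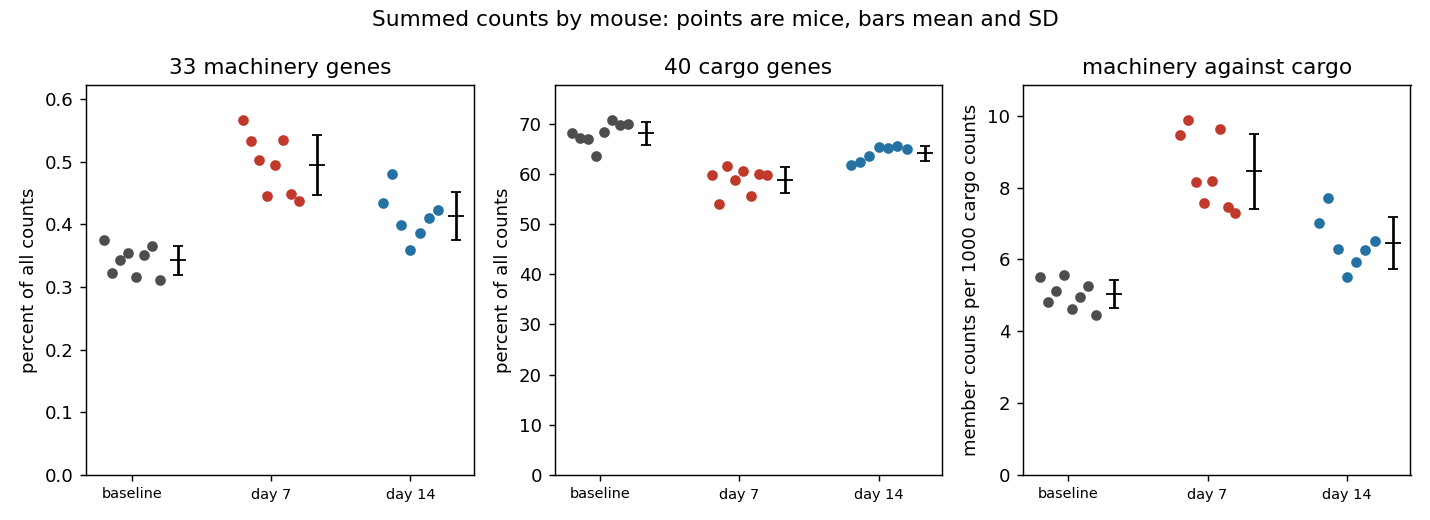
Percent of all counts taken by the 33 machinery genes and by the 40 cargo genes, and machinery counts per 1000 cargo counts (y axes, from 0), in every mouse with the mean and SD of each group. The machinery share is 0.312% to 0.374% in the baseline mice and 0.437% to 0.566% in the day 7 mice, and the cargo share moves the other way.

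Of 39 cargo genes tested, 24 fell and 7 rose at day 7 (median log2 fold change -0.45), and 6 fell and 3 rose at day 14 (median -0.25). With total count scaling 13 fell and 11 rose at day 7, with a median of 0.00 beside 0.48 for all genes. The cargo genes with the smallest p at day 7 were among the 7 that rose. The trypsinogens *Gm2663* and *1810009J06Rik*, which share sequence with other trypsinogens, rose from means of 1.94 (SD 2.25, n = 8) and 9.11 (SD 4.91) to 1727 (SD 538) and 813 (SD 297) normalised counts, with adjusted p = 2.09e-12 and 1.98e-10 in edgeR.

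The other steps of the pathway, described by counts and medians beside the 0.02 of all tested genes, held 0 to 2 genes that rose and 0 to 4 that fell in each of 6 lists, where 8.86% of all genes were called higher and 9.7% lower. Of 13 further components of the translocon and the oligosaccharyltransferase, 1 rose, 0 fell and the median was 0.01. The riser was *Tmem258*, a small subunit of the oligosaccharyltransferase, whose normalised counts had a mean of 141 (SD 19.2, n = 8) in the baseline group and of 194 (SD 16.2, n = 8) in the day 7 group. Its log2 fold change was 0.46 (standard error 0.083, adjusted p = 3.09e-04), and 6 of 8 mice exceeded the whole baseline range. *Tmco1*, an ER membrane protein of the translocon, had 0.17 (adjusted p = 0.0735). Of 23 genes that build the lipid-linked sugar donor, 0 rose and 2 fell (median -0.04), a share near that of all genes, and these were the mannosyltransferases *Alg1* at -0.28 (adjusted p = 0.00998) and *Alg2* at -0.32 (adjusted p = 0.0203). Of 12 genes of sugar trimming and the calnexin cycle, 0 rose and 2 fell (median -0.01), namely *Edem1* at -0.39 (adjusted p = 7.12e-04) and *Edem2* at -0.28 (adjusted p = 0.00433), which direct misfolded glycoproteins to degradation.

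Of 17 genes of other routes into the ER membrane, 2 rose and 4 fell (median -0.14), with *Bag6* at -0.30 (adjusted p = 0.00764) and *Emc1* at -0.28 (adjusted p = 0.00992) first by p. Of 18 genes of the COPII coat and its cargo receptors, which carry cargo onward to the Golgi, 0 rose and 4 fell (median -0.10), with *Sec24c* at -0.23 (adjusted p = 0.00282) and *Tmed10* at -0.34 (adjusted p = 0.00297) first. Of 10 transcription factors and sensors of ER stress, 0 rose and 4 fell (median -0.17). They include *Atf6*, a sensor that is cut to release a transcription factor, with means of 1460 (SD 101, n = 8) normalised counts in the baseline group and 1189 (SD 139, n = 8) in the day 7 group. The log2 fold change of *Atf6* was -0.30 (adjusted p = 0.00269), and 7 of 8 mice lay below every baseline mouse. *Bhlha15* (Mist1), a factor of secretory cell architecture, had -0.29 at day 7 (adjusted p = 0.0094) and -0.31 at day 14 (adjusted p = 0.0424), where it was the only gene called among these 6 lists. With total count scaling these directions did not hold, since 0 genes of the 6 lists were then called lower at day 7 and their medians ran from 0.27 to 0.47, beside 0.48 for all genes. Relative to all genes the medians lay 0.01 to 0.20 lower with that scaling.

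The promoters of the members were read for short motifs because ER stress factors bind known elements. RefSeq windows of 300 bases (250 before to 50 after the start, GRCm38.p6) were matched for 25 of the 33 members. Not matched were *Ostc*, *Sec11c*, *Spcs3*, *Ssr2*, *Srp19*, *Tram1*, *Srp68* and *Sec61a1*. The complete ER stress element (CCAAT, any 9 bases, CCACG, on either strand) was in the window of 0 of 25 members, and of 0.137% of 27025 genes with a window. The letters ACGTG, the core that several basic leucine zipper factors bind, were on either strand in 12 of 25 members (48%) and in 21.8% of all genes. Among these 12 are *Srp54a*, *Srp54b* and *Srp54c*, which hold the core in the run of 48 bases that they share. The 48% therefore counts that sequence more than once. CCACG was in 60% of members and 35.5% of genes, CCAAT in 60% and 41.1%, and ACGTG and CCACG can overlap. The member windows were also richer in G and C, with a median of 61.3% against 52.7% over 32851 windows.

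The windows of the signal peptidase subunits *Spcs1* and *Sec11a*, which both rose at day 7, are shown because they differ in this core. They lie at chr14:31001617-31001916 and chr7:80947501-80947800, both on the minus strand, and capitals mark the core.
Spcs1: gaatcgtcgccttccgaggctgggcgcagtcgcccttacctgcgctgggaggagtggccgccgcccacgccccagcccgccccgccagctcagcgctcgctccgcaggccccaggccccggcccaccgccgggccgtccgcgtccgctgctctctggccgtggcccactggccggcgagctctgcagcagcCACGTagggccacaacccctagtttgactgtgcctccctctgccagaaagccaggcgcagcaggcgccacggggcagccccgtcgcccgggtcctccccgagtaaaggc
Sec11a: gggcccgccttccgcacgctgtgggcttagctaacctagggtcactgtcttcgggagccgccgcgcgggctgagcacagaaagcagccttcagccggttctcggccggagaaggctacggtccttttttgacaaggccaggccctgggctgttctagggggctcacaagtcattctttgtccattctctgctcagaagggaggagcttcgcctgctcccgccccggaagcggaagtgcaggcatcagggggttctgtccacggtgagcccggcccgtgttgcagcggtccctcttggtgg
The window of *Spcs1* holds the core once, beginning 59 bases before the start, and that of *Sec11a* does not hold it. In GENCODE *Sec11a* begins at base 80947780, so most of its window lies inside the gene. *Spcs1* begins at base 31001672 there, so most of its window lies before the gene. By that annotation the windows do not cover the same part of these genes, and the difference in the core is not one between matching promoter regions. Of the 12 members with the core, 3 rose at day 7 (*Srp54b*, *Srp54c* and *Spcs1*), and the others were *Srp14*, *Srp54a*, *Srpr*, *Srprb*, *Sec62*, *Sec63*, *Ssr1*, *Ssr3* and *Dad1*. Of the 13 members with a window but without the core, 3 also rose (*Sec61g*, *Ssr4* and *Sec11a*). *Srp54a*, *Srp54b* and *Srp54c* hold the core within the 48 bases that the 3 copies share, and the counts of *Srp54b* and *Srp54c* are not separate observations. By GENCODE this run of 48 bases begins inside each gene. A match of letters is a description and not a binding site.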

How the data were processed

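The authors extracted RNA from the pancreatic head (RNA integrity numbers above 6.4), depleted ribosomal RNA, trimmed paired reads with Trim Galore and Cutadapt, aligned them to mm10 with STAR (2.5.2a in the submitters' processing notes) and deposited counts of uniquely mapped fragments per gene symbol from featureCounts. The strand setting of the counting is not given in the sources used here. In the paper's list the lowest integrity number was 6.4 itself. The numbers were mostly lower in the day 14 group than in the others, with overlap, and that list includes the day 14 mouse not analysed here. The paper found no significant correlation of these numbers with mapping measures or principal components. In the paper's mapping statistics the duplicate rate of every day 7 mouse lay below that of every baseline mouse. The share of reads in 5' UTR exons was lower in every day 14 mouse used than in all other mice. The part of these differences between groups in the results was not tested. One file per mouse was used for 23 mice; mouse 20 was not analysed here.

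Counts were tested with edgeR 4.0.16 (R 4.3.3, limma 3.58.1): TMM scaling, filterByExpr by time point (12195 genes), estimateDisp, robust glmQLFit and glmQLFTest on time point and sex, with two-sided p-values adjusted by the Benjamini-Hochberg method over all tested genes. The interaction used a coefficient for each group of sex and time point (12933 genes). Standard errors were derived from F and the log2 fold change, and so restate the test. Log2 CPM used a prior count of 2. Transcript lengths and gene positions are those of GENCODE vM21 (GRCm38). No pair of libraries of a group agreed within sampling noise (lowest chi-square per gene 4.15). The precision of a value is set by the 18 to 7094 counts per mouse behind each member; intervals were not computed per library, and 3 counts were taken as the floor for counting error.

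The members, the other lists and the markers were chosen with earlier results of these data known. Full values are given for the members with the smallest p of each complex at day 7 and at day 14 and for members called against the direction of most, and of each other list for the 2 genes with the smallest p at day 7; *Sec11c*, *Stt3a* and *Stt3b* were taken up after their values were seen. The ratios within libraries were compared with exact permutation tests (scipy 1.17.1). Alternatives were DESeq2 1.42.0, scaling by DESeq2's size factors or by total counts, the latter with and without the 20 most abundant genes, no filter, at least 10 counts in every mouse, only the mice compared, no sex covariate, an offset for GC content, leaving out each mouse, and, added after the data were seen, an offset for transcript length.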

Additional observations from a re-analysis of the deposited data

Results flagged for a closer look

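In groups of 7 or 8 mice, a mouse was marked when its gap to the nearest mouse took more of the group's range than Dixon's 95% critical value allows; chance marks about 1 in 20 groups, and 4 of 105 were marked. *Srp54a* had 22.04 normalised counts in baseline mouse 3, with the next lowest mouse at 36.0, and it was not called at either day. *Sec62* had 1140 normalised counts in baseline mouse 5, with the next at 1560. *Spcs1* had 379 normalised counts in the same mouse, with the next at 484, and its call at day 7 was lost without that mouse and in 15 of the other fits that left out a mouse. *Srp72* had 781 normalised counts in day 7 mouse 10, with the next at 870.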

How the results depend on the processing

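Percentages in brackets are the share of all tested genes called. The 10 members called at day 7 (18.6%) became 8 with DESeq2 (15.7%), with its size factors in edgeR (18.6%), with no filter (10.8%) and with only the mice compared (16.9%). They became 7 with the GC content offset (16.4%), 10 with no sex covariate (18.2%) and with the transcript length offset (18.5%). They became 11 with at least 10 counts in every mouse (21.2%), 33 with total count scaling (76.7%), and 18 when that scaling left out the 20 most abundant genes (21.8%). Leaving out each mouse gave 6 to 12 (15.7% to 20.3%), with 6 without baseline mouse 4 or 5 or day 7 mouse 11 or 13. *Sec11a*, *Ssr2*, *Srp54b*, *Srp54c*, *Ostc* and *Srp68* were called in all of these fits that left out a mouse. The 0 members called at day 14 (1.57%) became 1, *Sec61g*, with at least 10 counts in every mouse (1.82%). They became 29 with total count scaling (25%) and 2 when that left out the 20 most abundant genes (1.77%). Without each mouse in turn 0 to 1 were called. Between day 7 and day 14 the counts were 28 (33.7%) and 1 (1.66%) with these 2 scalings and 0 when each mouse was left out. The counts of 0 for sex and for the interaction stayed at 0. With total count scaling the sign turned at day 7 for *Srp9* (0.41), *Srp68* (0.22), *Srpr* (0.29), *Sec63* (0.39), *Spcs3* (0.43) and *Sec11c* (0.32), at day 14 for *Srpr* (0.16), *Sec61a1* (0.21), *Sec63* (0.21) and *Sec11c* (0.17), and between day 7 and day 14 for *Srpr* (-0.13), *Sec61b* (-0.22), *Sec63* (-0.18), *Tram1* (-0.19), *Sec11c* (-0.15) and *Stt3b* (-0.21). The shift of all genes under that scaling was 0.48, 0.22 and -0.26 for the 3 comparisons. The rise in machinery counts per 1000 cargo counts at day 7 was 3.42, and 2.98 without *Tram1*. No paired analysis was possible because each mouse number occurs once.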
